A study of Rattus norvegicus with 24 samples.

Results

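The 4 hippocampal arrays of a rat brain series are described here, each set against the mean of the 5 other brain regions of the same strain group. They were chosen by their title, as the arrays labelled hippocampus, and make up 4 of 24 arrays. The series measured RNA on an Affymetrix rat expression array in hippocampus, prefrontal cortex, dorsal striatum, ventral striatum, substantia nigra with ventral tegmental area, and cerebellar vermis, with 1 array for each region and strain group. The strain groups were SHR (8 spontaneously hypertensive rats, an inbred strain used as a genetic model of attention deficit hyperactivity disorder), WKY (8 Wistar-Kyoto rats, the strain set beside SHR), SD-PCB (4 outbred Sprague-Dawley rats exposed to polychlorinated biphenyls) and SD (8 Sprague-Dawley rats not exposed). All 28 rats were male and were taken at postnatal day 55 to 65. The congeners, dose and time of exposure, and any pooling of rats before hybridisation, are not given in the sources used here.

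The hippocampus is a fold of cortex in which dentate granule cells receive entorhinal input and send mossy fibres to CA3 pyramidal cells, which in turn project to CA1. It is known for the storage of spatial and episodic memory, for synapses that strengthen with use, and for a high density of corticosteroid receptors. Its principal neurons are glutamatergic and share much of their transcription factor code with those of the neocortex, so the prefrontal cortex is the region of the series closest to it in cell types.

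A signal below is the authors' intensity of 1 probe set on a linear scale, and a log2 difference is the hippocampus minus the mean of the other 5 regions on log2(signal + 1), averaged over 4 strain groups, with the standard error of the limma fit on all 24 arrays. A gene is said to have risen or fallen where its adjusted p was under 0.05 and its log2 difference at least 1 in size. There was 1 array for each region in a strain group, and per the series description the regions were taken from the brains of the same 28 rats. The fit takes out the mean of each strain group. These p-values therefore measure how far differences between regions vary among strain groups, pooled over all regions, and not the spread between animals. In dissected tissue, fewer cells of a type and less RNA per cell cannot be told apart.

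The hippocampal arrays had median signals between 94.8 and 167, within the range of the other regions (89.0 to 184). Over all 31042 probe sets that are not controls, dim ones included, a hippocampal array was least like the vermis array of its strain group (Pearson correlation across probe sets 0.818 to 0.858). The medians for the other 4 regions lay between 0.890 and 0.904. Those correlations are across probe sets, which are not replicates.

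The SD-PCB hippocampal array stood apart in its markers of neighbouring tissue. The summed signal of 10 thalamus and habenula genes was 3350 in SHR, 4127 in WKY, 11650 in SD-PCB and 4933 in SD hippocampus. Of those 10 genes, 7 were highest on the SD-PCB array among the hippocampal arrays. Tcf7l2, a Wnt pathway transcription factor of thalamic neurons, had 1904 in SHR, 2035 in WKY, 5660 in SD-PCB and 2475 in SD hippocampus. Lef1, its close relative, had 414 in SHR, 884 in WKY, 2792 in SD-PCB and 917 in SD. Slc17a6, the vesicular glutamate transporter of thalamus and brainstem, had 584 in SHR, 915 in WKY, 1850 in SD-PCB and 824 in SD. The summed signal of 12 striatal genes was also highest on that array, at 10440 in SD-PCB against 7225 in SHR, 6265 in WKY and 5638 in SD hippocampus, while dorsal striatum had 65150 to 72820. What part these markers have in the results was not tested. With the SD-PCB arrays of all regions left out, 184 genes rose and 87 fell. Of these, 162 rises and 67 falls were shared with the result on all 4 strain groups.

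**Figure D1:**
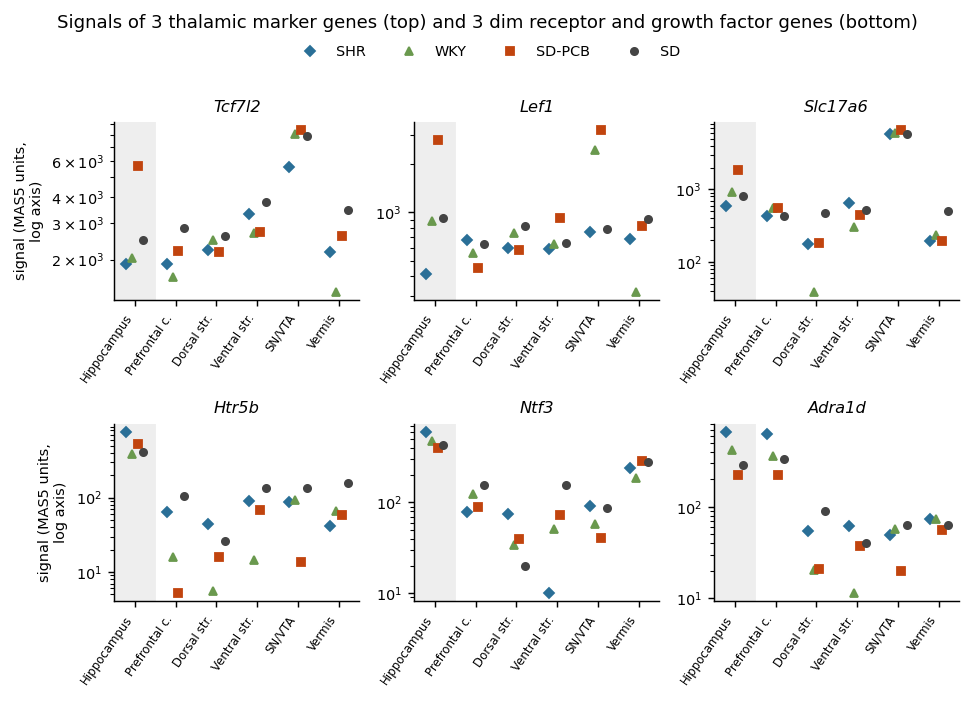
Signals (log axis) of 6 genes on the 24 arrays by region, 1 point for each strain group. In the upper row the SD-PCB hippocampal array is the highest hippocampal array for Tcf7l2, Lef1 and Slc17a6 (5660, 2792 and 1850), and in the lower row Htr5b and Ntf3 are highest in the hippocampus while Adra1d is as high in the prefrontal cortex.

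The label was checked with 3 genes that mark the hippocampus. Pkp2 (probe set 1388539_at, chromosome 11), a desmosomal plakophilin, had 2647 in SHR, 1549 in WKY, 1391 in SD-PCB and 1300 in SD hippocampus, against 65.8 to 345 on the 20 arrays of other regions. Fibcd1 (1390677_at, chromosome 3), an acetyl-binding receptor used as a marker of CA1 pyramidal cells, had 1764 in SHR, 1204 in WKY, 636 in SD-PCB and 783 in SD hippocampus, against 9.76 to 185 elsewhere. For these genes no array of another region reached the lowest hippocampal array. Prox1 (1376672_at, chromosome 13), the homeobox factor that dentate granule cells need to keep their identity, had 5196 in SHR, 4666 in WKY, 6053 in SD-PCB and 6710 in SD hippocampus, against 908 to 4307 elsewhere. Its closest region was the vermis, and the hippocampus was above it in each strain group. The log2 differences were 3.40 ± 0.28 for Pkp2 (adjusted p = 1.7e-08), 3.43 ± 0.48 for Fibcd1 (adjusted p = 2.208e-05) and 1.76 ± 0.11 for Prox1 (adjusted p = 9.134e-10), with 4 of 4 strain groups above 0 for each. Each mean is over 4 strain groups, and its SE and p come from the limma fit on all 24 arrays. The markers therefore go with the label on all 4 arrays.

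**Figure D2:**
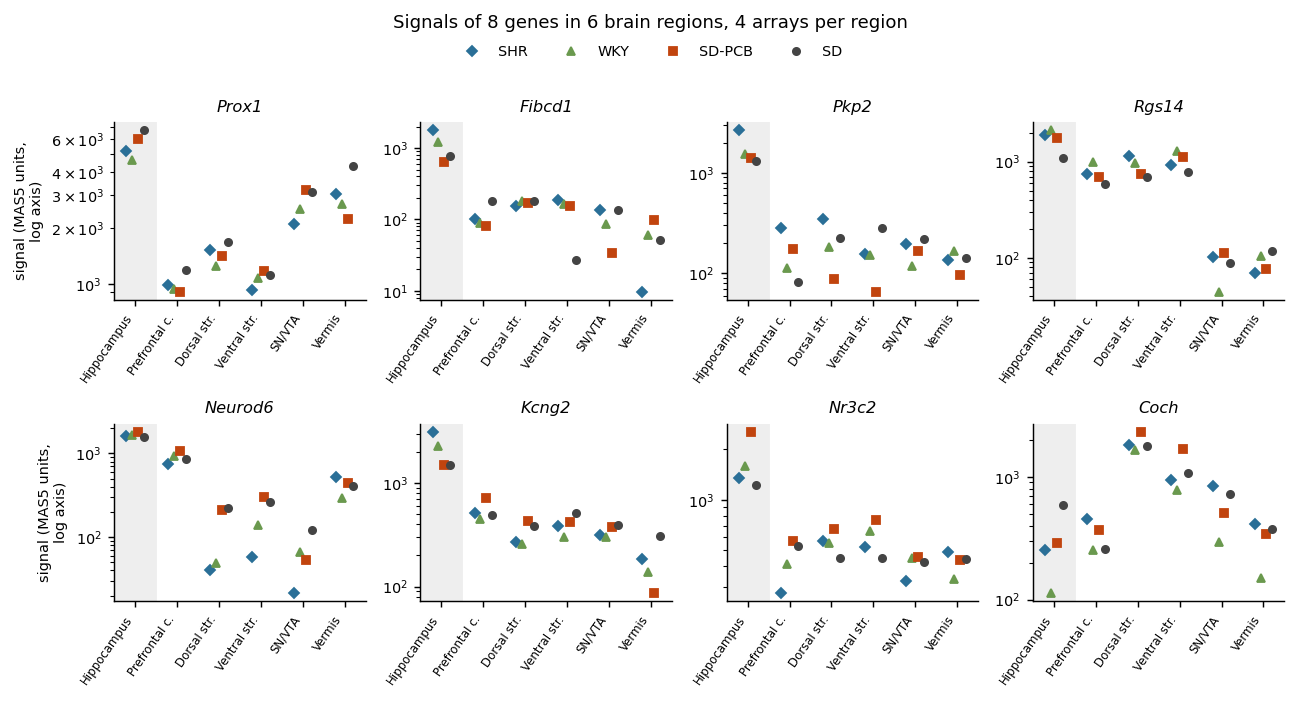
Signals (log axis) of 8 genes on the 24 arrays by region, 1 point for each strain group. Pkp2, Fibcd1, Kcng2, Nr3c2, Neurod6 and Prox1 have each hippocampal array above each array of the other regions, Rgs14 overlaps with the ventral striatum, and Coch is lower in the hippocampus than in both striatal regions.

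Against the mean of the other regions, 179 of 9009 genes rose in the hippocampus (1.99%) and 72 fell (0.799%). All but 1 of the rises, 178, had 1 sign in the 4 strain groups, as did 65 of the falls. With no minimum difference, 612 genes were higher (6.79%) and 381 lower (4.23%). The hippocampus was the highest region on average for 113 of the 179 rises and in each strain group for 63 of them. For 87 of the 179 the prefrontal cortex was the highest of the other regions, ahead of the dorsal striatum for 35, the substantia nigra with ventral tegmental area for 21, the vermis for 20 and the ventral striatum for 16. Of the 72 falls, 30 had their highest level in the dorsal striatum and 29 in the vermis, and the hippocampus was the lowest region on average for 42 and in each strain group for 5. Set against the median of the other regions in place of their mean, 124 of the rises had a log2 difference of at least 1, and 51 of the falls one of -1 or lower. Tested on those 4 differences alone, 141 genes rose and 4 fell, of which 116 rises and 1 fall were shared. Tested on the 4 differences from the mean alone, with no spread shared with the other regions, 185 genes rose and 20 fell, of which 177 rises and 19 falls were shared.

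The hippocampal fields were described with 4 marker lists. Over all 9009 genes tested, 1.99% rose and 0.799% fell. List counts of tested genes on all strain groups, here and below, are to be read beside those shares. Of 5 CA1 genes tested, 4 rose, with a median log2 difference of 1.59 beside 0.0 over all genes tested. Besides Fibcd1 these were Pou3f1, a POU transcription factor (1.75 ± 0.29, adjusted p = 0.0001454), Gpr161, an orphan receptor of primary cilia (1.59 ± 0.15, adjusted p = 6.808e-08), and Mpped1, a metallophosphoesterase of cortical neurons (1.51 ± 0.15, adjusted p = 2.071e-07). The remaining CA1 gene, the matricellular protein Ccn3, had a difference of 1.39 ± 0.51 (adjusted p = 0.09201). Pou3f1 and Mpped1 were not particular to the hippocampus, as their highest signals lay in dorsal striatum (3336) and prefrontal cortex (10130), above the highest hippocampal signals of 3200 and 6337. Gpr161 had 2188 in SHR, 1592 in WKY, 855 in SD-PCB and 1217 in SD hippocampus, against 146 to 1030 elsewhere, so that its lowest hippocampal array, SD-PCB, overlapped with other regions.

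Of 6 CA3 genes tested, 4 rose and 1 fell, with a median of 1.20. Next to Pkp2, the rises were Homer3, a scaffold of metabotropic glutamate receptors (1.40 ± 0.27, adjusted p = 0.001039), Bok, a relative of the cell death factors Bax and Bak (1.39 ± 0.16, adjusted p = 1.699e-06), and Nectin3, an adhesion protein of the mossy fibre contact (1.01 ± 0.28, adjusted p = 0.02226). Homer3 was higher still in the vermis in each strain group, at up to 1148 against 733 at most in hippocampus. Bok had 996 in SHR, 647 in WKY, 473 in SD-PCB and 517 in SD hippocampus, against 138 to 470 elsewhere. Its 4 hippocampal arrays were thus above all others, by a narrow margin in SD-PCB. Coch, which encodes the extracellular protein cochlin, went the other way: 253 in SHR, 113 in WKY, 291 in SD-PCB and 587 in SD hippocampus, against 150 to 2314 elsewhere, with the highest signals in dorsal striatum (log2 -1.28 ± 0.22, adjusted p = 0.000284). Grik4, the kainate receptor subunit of mossy fibre synapses, had 0.87 ± 0.28 (adjusted p = 0.04564), short of the minimum difference. The Nectin3 call was lost without SHR (0.93, adjusted p = 0.1613), without WKY (0.87, adjusted p = 0.1451) and without SD-PCB (1.10, adjusted p = 0.06714), and another Nectin3 probe set had a difference of 0.04. Without the SD-PCB arrays 3 CA3 genes rose and 1 fell.

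Among 5 dentate genes tested, 2 rose: Prox1, and the cation channel Trpc6 (1.16 ± 0.32, adjusted p = 0.01838), with a median of 0.71. Trpc6 had 397 in SHR, 263 in WKY, 324 in SD-PCB and 519 in SD hippocampus, against 58.4 to 581 elsewhere. Leaving out any of the strain groups ended its call, with values from 1.04 without SD (adjusted p = 0.05855) to 1.22 without SD-PCB (adjusted p = 0.0532), 1.19 without SHR (adjusted p = 0.06015) and 1.21 without WKY (adjusted p = 0.05391). Stxbp6, a regulator of vesicle fusion, had 0.71 ± 0.14 (adjusted p = 0.001534) and Dock10 had 0.66 ± 0.22 (adjusted p = 0.06264). Calb1, the calcium buffer calbindin of granule cells, had -0.70 ± 0.15 (adjusted p = 0.002346). It is also a gene of Purkinje cells and reached 22800 in the vermis. Dsp, the desmosomal protein desmoplakin, and Tdo2, an enzyme of tryptophan breakdown, were under the filter on low signals, and C1ql2, Lct and Npnt are not analysed here.

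Of 5 CA2 genes tested, 1 rose. This was Rgs14 (1369045_at, chromosome 17), a regulator of G protein signalling that is known in mouse to restrain plasticity at CA2 synapses. It had 1874 in SHR, 2113 in WKY, 1751 in SD-PCB and 1090 in SD hippocampus, against 44.8 to 1290 elsewhere, with a log2 difference of 2.26 ± 0.21 (adjusted p = 6.808e-08). Only its SD hippocampal array lay within the range of the other regions, whose highest array was from the ventral striatum, and within each strain group the hippocampus was highest. Amigo2, an adhesion protein, had 0.67 ± 0.23 (adjusted p = 0.07059) and Necab2, a neuronal calcium-binding protein, 0.64 ± 0.49 (adjusted p = 0.5324). Ptpn5, the striatum-enriched tyrosine phosphatase, had -0.04 ± 0.16 (adjusted p = 0.9327), and Pcp4, a calmodulin regulator, -0.76 ± 0.11 (adjusted p = 2.311e-05), both with their highest signals in dorsal striatum. The list's median was 0.64, and 0.38 without the SD-PCB arrays.

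Of 19 transcription factors of forebrain excitatory neurons tested, 8 rose and 0 fell, with a median of 0.85. The largest were basic helix-loop-helix factors. Neurod6, which maintains the identity of pyramidal cells, had 1635 in SHR, 1655 in WKY, 1796 in SD-PCB and 1580 in SD hippocampus, against 21.4 to 1060 elsewhere (3.05 ± 0.32, adjusted p = 5.473e-07). Bhlhe22, a repressor that shapes cortical areas, had 5331 in SHR, 4534 in WKY, 5880 in SD-PCB and 4945 in SD hippocampus, against 80.9 to 3022 elsewhere (2.89 ± 0.26, adjusted p = 5.427e-08). For both factors all 4 hippocampal arrays were above the other 20. Neurod2, a relative of Neurod6 that acts in the same neurons, had 2.18 ± 0.34 (adjusted p = 8.015e-05), and its SD and WKY hippocampal arrays, at 644 and 842, lay under the highest prefrontal array (913). Emx2, a homeobox factor needed in mouse for the dentate gyrus to form, had 2.09 ± 0.55 (adjusted p = 0.01282) and Bcl11b, a zinc finger factor of deep cortical and striatal neurons, 1.62 ± 0.25 (adjusted p = 9.051e-05). Bcl11b was higher still in dorsal striatum in each strain group, at up to 7383 against 5867 at most in hippocampus. Another Bcl11b probe set had 0.96, under the minimum difference. Lhx2 (1.29), Bcl11a (1.04) and Zbtb18 (1.01) completed the rises, of which Bcl11a was under the minimum difference without SHR (0.96) and Zbtb18 without SD (0.97) or SD-PCB (0.98). Without WKY the Emx2 call was lost (1.99, adjusted p = 0.07354), and without the SD-PCB arrays 7 of the 19 rose.

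Promoters are printed for 3 of these hippocampal regulators, Neurod6, Neurod2 and Rgs14, to show the letters that the factors of the family bind. NeuroD proteins bind the E-box CAGATG, and the cyclic AMP response element TGACGTCA is the palindrome bound by CREB, a factor of activity-driven transcription. Each sequence runs from 250 bases before to 50 bases after the annotated start in RefSeq for the rat build GRCr8, on the strand of the gene, and capitals mark matches to either motif on either strand.
Neurod6: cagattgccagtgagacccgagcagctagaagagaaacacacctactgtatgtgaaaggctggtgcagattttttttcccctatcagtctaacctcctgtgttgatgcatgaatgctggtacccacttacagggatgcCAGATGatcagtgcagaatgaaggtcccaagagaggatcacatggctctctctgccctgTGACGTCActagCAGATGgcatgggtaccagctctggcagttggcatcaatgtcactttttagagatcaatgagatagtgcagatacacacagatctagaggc
Neurod2: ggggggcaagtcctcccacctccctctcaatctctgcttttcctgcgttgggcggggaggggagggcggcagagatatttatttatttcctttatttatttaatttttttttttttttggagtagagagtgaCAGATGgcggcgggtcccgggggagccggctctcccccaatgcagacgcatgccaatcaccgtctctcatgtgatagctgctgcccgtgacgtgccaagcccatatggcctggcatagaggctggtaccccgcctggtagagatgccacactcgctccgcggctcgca
Rgs14: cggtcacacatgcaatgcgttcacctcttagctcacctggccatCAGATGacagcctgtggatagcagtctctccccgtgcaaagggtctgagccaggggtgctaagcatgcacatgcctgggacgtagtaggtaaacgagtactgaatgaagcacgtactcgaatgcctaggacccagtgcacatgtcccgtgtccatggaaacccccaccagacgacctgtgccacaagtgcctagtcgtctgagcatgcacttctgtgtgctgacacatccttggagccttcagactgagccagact
The Neurod6 promoter (chr4:86180106-86180405, minus strand) holds CAGATG at 112 and at 41 bases before the start and TGACGTCA at 53 bases before it. Neurod2 (chr10:83824228-83824527, minus strand) holds CAGATG at 118 bases before the start and Rgs14 (chr17:9268184-9268483, minus strand) at 206. CAGATG on either strand is common in such windows: it is in 16.6% of 33469 promoters, in 10.3% of 8532 promoters of genes tested, and in 21 of 160 promoters (13.1%) of genes that rose, of which 123 genes had a promoter in the table. TGACGTCA is in 1.83% of all promoters, 3.22% of those of tested genes and 1 of 160 of those of genes that rose. The motifs can share the letters TG but do not overlap in the promoters printed, and a match is a description of the letters and not of binding.

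Components of glutamatergic synapses were higher in part. Slc17a7, the vesicular glutamate transporter of cortical neurons, had 2110 in SHR, 3326 in WKY, 2664 in SD-PCB and 2364 in SD hippocampus, against 63.6 to 2709 elsewhere (2.20 ± 0.34, adjusted p = 8.646e-05). Its level in the prefrontal cortex was close by: the hippocampus minus prefrontal cortex difference was 0.20 ± 0.44 (adjusted p = 0.8833). Of 17 AMPA, NMDA and kainate receptor genes tested, 3 rose, with a median of 0.29. They were Cnih2, an auxiliary subunit that slows AMPA receptor closing (1.74 ± 0.19, adjusted p = 7.062e-07), Neto1, an auxiliary subunit of kainate receptors (1.61 ± 0.25, adjusted p = 8.519e-05), and Gria1, the AMPA receptor subunit whose insertion follows long-term potentiation (1.14 ± 0.12, adjusted p = 7.203e-07). Gria1 had 2614 in SHR, 2107 in WKY, 2486 in SD-PCB and 1935 in SD hippocampus, and no array of another region was above 1591. Neto1 reached its highest signal in dorsal striatum (936, against 859 at most in hippocampus), and its difference turned to -0.05 when the hippocampus was set against the 3 other forebrain regions alone. Among metabotropic receptors, Grm5, coupled to calcium release, rose (1.13 ± 0.16, adjusted p = 2.525e-05) and Grm4, a presynaptic receptor of cerebellar granule cells, fell (-1.01 ± 0.26, adjusted p = 0.01229). Grm5 was still higher in dorsal striatum, at up to 13250 against 9598 at most in hippocampus, and had -0.10 against the 3 forebrain regions. The fall of Grm4 was lost without SHR (-0.96, adjusted p = 0.07843), WKY (-0.96, adjusted p = 0.1153) or SD-PCB (-0.86, adjusted p = 0.08119).

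Of 30 postsynaptic density and plasticity genes tested, 5 rose and 0 fell, with a median of 0.41. Ddn, the dendrin of dendrites, had 1.70 ± 0.36 (adjusted p = 0.002526), and Icam5, the adhesion protein telencephalin of forebrain dendrites, 1.66 ± 0.42 (adjusted p = 0.01101). Nrgn, the calmodulin-binding protein neurogranin, had 1.58 ± 0.35 (adjusted p = 0.003577), next to Homer3 and to Itpka, an inositol kinase of dendritic spines (1.21 ± 0.14, adjusted p = 1.999e-06). The neocortex exceeded the hippocampus for Nrgn, which reached 7226 in prefrontal cortex, against 4562 at most in hippocampus. For Homer3 the vermis exceeded the hippocampus in each strain group. The calls of Icam5 and Nrgn did not hold in each fit that left out 1 strain group. Icam5 lost its call without SHR (1.62, adjusted p = 0.1051) and without WKY (1.62, adjusted p = 0.08967). Nrgn lost its call without WKY (1.42, adjusted p = 0.07284) but kept it without SHR (1.56, adjusted p = 0.04093). Against the 3 forebrain regions Nrgn had -0.01. In all, 6 of the 30 rose without the SD-PCB arrays.

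Calcium handling gave 2 rises and 0 falls among 18 genes tested, with a median of 0.21, and 2 rises and 1 fall without the SD-PCB arrays. Hpca, hippocalcin, a calcium sensor named for the hippocampus, had 1.35 ± 0.13 (adjusted p = 1.012e-07), with 8424 to 10410 in hippocampus and up to 11440 in dorsal striatum. Ryr2, the ryanodine receptor that releases stored calcium, had 1.09 ± 0.21 (adjusted p = 0.001067). Cpne7 and Cpne6, which encode copines that bind membranes when calcium is high, were among the 20 largest rises. Cpne7 had 2435 in SHR, 1410 in WKY, 442 in SD-PCB and 1121 in SD hippocampus, against 7.83 to 1001 elsewhere (2.71 ± 0.30, adjusted p = 9.585e-07), and its SD-PCB array alone fell within that range. Cpne6 had 4727 in SHR, 3872 in WKY, 1950 in SD-PCB and 1730 in SD hippocampus, against 105 to 1876 elsewhere (2.22 ± 0.16, adjusted p = 2.628e-09). The inbred strains were higher than the SD-PCB and SD arrays for this gene. Wipf3, a binding partner of actin regulators, rose by 2.63 ± 0.23 (adjusted p = 2.829e-08). It had 2892 to 5824 in hippocampus and up to 4280 in dorsal striatum, so these regions overlap.

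Among GABA receptor subunits, 2 of 9 tested rose and 2 fell, with a median of 0.36. Gabra5, the subunit of extrasynaptic receptors of pyramidal cells, had 1781 in SHR, 3007 in WKY, 2707 in SD-PCB and 2335 in SD hippocampus, against 57.3 to 1760 elsewhere (2.26 ± 0.23, adjusted p = 2.819e-07). All hippocampal arrays were above the others, SHR only just above the highest prefrontal array. Gabra2, an alpha subunit of forebrain synapses, rose by 1.05 ± 0.18 (adjusted p = 0.0002464), and Gabrd, an extrasynaptic subunit of dentate and cerebellar granule cells, fell (-1.03 ± 0.23, adjusted p = 0.003918). Gabra6, the subunit of cerebellar granule cells, fell by 2.53 ± 0.78 on the log2 scale (adjusted p = 0.03843), with signals of 33.3 in SHR, 4.98 in WKY, 18.4 in SD-PCB and 201 in SD hippocampus and up to 24460 in the vermis. The WKY prefrontal array had a Gabra6 signal of 2297. The Gabra6 call was lost without SHR (-2.84, adjusted p = 0.1056), without WKY (-1.31, adjusted p = 0.3152) and without SD-PCB (-2.69, adjusted p = 0.06521). Gabra2 had 0.92 without SHR (adjusted p = 0.004511), and Gabrd had -0.96 without SHR (adjusted p = 0.04695) and -0.84 without WKY (adjusted p = 0.07434), all under the threshold.

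Interneuron genes did not move together, with 1 rise and 1 fall among 12 tested and a median of -0.17. Slc32a1, the vesicular transporter of GABA, fell (-1.23 ± 0.21, adjusted p = 0.0002027), with 758 in SHR, 301 in WKY, 444 in SD-PCB and 199 in SD hippocampus and up to 2681 in dorsal striatum, where most neurons are GABAergic. Without SD its difference was -0.99 (adjusted p = 0.00592). Cck, the peptide cholecystokinin of basket cells and of cortical pyramidal cells, rose by 1.44 ± 0.46 (adjusted p = 0.04551) but was highest in prefrontal cortex (5342). The Cck call was lost without any of SHR (1.35, adjusted p = 0.1836), WKY (1.25, adjusted p = 0.2394) and SD (1.64, adjusted p = 0.0813).

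Ion channels gave some of the clearest differences. Of 32 potassium and HCN channel genes tested, 5 rose and 2 fell, with a median of 0.24. Kcng2 (chromosome 18), a modifier subunit that forms channels together with delayed rectifier subunits, had 3124 in SHR, 2303 in WKY, 1498 in SD-PCB and 1511 in SD hippocampus, against 86.2 to 714 elsewhere. All 4 hippocampal arrays stood well above the other 20 (2.61 ± 0.22, adjusted p = 2.809e-08), and the highest other region was the prefrontal cortex. Kcnj6, the inward rectifier opened by G protein-coupled receptors, had 1564 in SHR, 1385 in WKY, 1616 in SD-PCB and 1243 in SD hippocampus, against 75.1 to 1161 elsewhere (1.75 ± 0.22, adjusted p = 6.712e-06). Kcnj4, an inward rectifier of forebrain neurons, rose by 1.28 ± 0.22 (adjusted p = 0.0002126), Kcnab2, an auxiliary beta subunit, by 1.22 ± 0.20 (adjusted p = 0.0001165), and Kcnq5, a subunit of the M-current, by 1.01 ± 0.12 (adjusted p = 2.196e-06; 0.992 and under the minimum without WKY). Kcnj4 was higher still in dorsal striatum (up to 777, against 467 at most in hippocampus), and its difference was -0.04 against the median of the other regions and -0.52 against the 3 forebrain regions. Kcna5, a delayed rectifier, fell (-2.14 ± 0.45, adjusted p = 0.002052), as did Kcnt1, a sodium-activated channel (-1.31 ± 0.23, adjusted p = 0.0002892). Kcna5 had 18.8 in SHR, 24.5 in WKY, 93.1 in SD-PCB and 47.3 in SD hippocampus, low signals beside up to 838 in ventral striatum, and its call was lost without SHR (-1.80, adjusted p = 0.05361).

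Of 14 calcium and sodium channel genes tested, 2 rose and 1 fell, beside 1.99% and 0.799% of all genes tested, with a median of 0.23. Scn3b, a beta subunit of sodium channels, had 3101 in SHR, 2879 in WKY, 2736 in SD-PCB and 2087 in SD hippocampus, against 87.3 to 2341 elsewhere (1.86 ± 0.13, adjusted p = 2.505e-09). Scn4b, another beta subunit, fell by 1.88 ± 0.26 (adjusted p = 1.572e-05). It had 539 in SHR, 559 in WKY, 1757 in SD-PCB and 592 in SD hippocampus, against up to 11810 in dorsal striatum, and the SD-PCB array with its higher striatal markers was the highest hippocampal array. Cacna1h, a low-threshold calcium channel, had 1.09 ± 0.35 (adjusted p = 0.04981) and lost this call without SHR (0.96, adjusted p = 0.3101), WKY (1.03, adjusted p = 0.2362) or SD-PCB (0.99, adjusted p = 0.1026).

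Of 25 axon guidance genes tested, 7 rose and 1 fell, with a median of 0.58. The neuropilins, receptors for secreted semaphorins, had the largest rises among them. Nrp2, which is needed in mouse for the pruning of mossy fibres, had 2078 in SHR, 2156 in WKY, 1403 in SD-PCB and 1429 in SD hippocampus, against 126 to 1310 elsewhere (1.94 ± 0.24, adjusted p = 5.631e-06). Nrp1 had 1411 in SHR, 2570 in WKY, 2087 in SD-PCB and 2081 in SD hippocampus, against 239 to 1362 elsewhere (1.78 ± 0.21, adjusted p = 2.174e-06). For both receptors each hippocampal array was above each array of the other regions. Their ligand gene Sema3c had 1704 in SHR, 3474 in WKY, 4387 in SD-PCB and 2839 in SD hippocampus, against 334 to 2716 elsewhere (1.33 ± 0.18, adjusted p = 1.983e-05). Eph receptors and ephrins, which guide axons by contact, also moved: Epha5 rose by 1.51 ± 0.37 (adjusted p = 0.007346), Epha4 by 1.19 ± 0.10 (adjusted p = 2.321e-08) and Efnb3 by 1.19 ± 0.22 (adjusted p = 0.0004793), while Efna5, a ligand of Eph receptors, fell (-1.08 ± 0.15, adjusted p = 2.683e-05; -0.92 and under the minimum without SHR). Efnb3 overlapped with both striatal regions, at 1149 to 1692 in hippocampus, 928 to 1957 in dorsal striatum and 1180 to 1980 in ventral striatum. Its lowest signals were in the vermis (82.5 to 268). Sema5a, a semaphorin held in the membrane, rose by 1.17 ± 0.13 (adjusted p = 6.995e-07). Without the SD-PCB arrays 8 of the 25 rose and 1 fell.

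Of 9 genes of desmosomes and catenin junctions, 2 rose, Pkp2 and Perp, a tetraspan protein of desmosomes (1.23 ± 0.26, adjusted p = 0.002323), with a median of 0.01. With SD-PCB left out, 1 rose and 1 fell. Perp had 626 in SHR, 950 in WKY, 1127 in SD-PCB and 715 in SD hippocampus, against up to 1030 in the vermis, and without SD-PCB its difference was 0.94 (adjusted p = 0.007844). Of 14 cadherins 0 rose and 1 fell, Cdh7 (-1.01 ± 0.20, adjusted p = 0.001028), a fall that did not reach the minimum difference without SHR (-0.90, adjusted p = 0.04558), WKY (-0.79, adjusted p = 0.03707) or SD-PCB (-0.95, adjusted p = 0.01293). Of 10 Wnt pathway genes 1 rose, Dkk3, a secreted member of the Dickkopf family (1.08 ± 0.13, adjusted p = 3.953e-06), which had 0.996 without SD (adjusted p = 0.0004957) and 0.94 without SHR (adjusted p = 0.0009174). Dkk3 was higher in prefrontal cortex than in hippocampus except in SHR, at up to 11780 against 9344 at most in hippocampus. Frzb, a secreted Wnt antagonist outside that list, was among the largest rises of all genes. It had 2518 in SHR, 3866 in WKY, 3426 in SD-PCB and 2447 in SD hippocampus, against 280 to 1762 elsewhere (2.19 ± 0.20, adjusted p = 5.357e-08), with no overlap. Of 20 genes of synaptic vesicle release 1 rose, Syt17, an atypical synaptotagmin (1.93 ± 0.35, adjusted p = 0.0004343), and the median was 0.07.

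Corticosteroid signalling differed in 1 receptor. Nr3c2 (1368476_at, chromosome 19) encodes the mineralocorticoid receptor, which binds corticosterone with high affinity and is known to be dense in hippocampal neurons. It had 1341 in SHR, 1601 in WKY, 2532 in SD-PCB and 1232 in SD hippocampus, against 277 to 752 on the arrays of other regions. No array elsewhere came near the lowest hippocampal array (1.76 ± 0.15, adjusted p = 3.706e-08), and SD-PCB was the highest of the 4. It was the only call among 11 genes of the corticosteroid list tested, whose median was 0.14.

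Of 14 neurotrophins and activity-linked secreted proteins tested, 3 rose and 1 fell, with a median of 0.30. Nptxr, the receptor of neuronal pentraxins that cluster AMPA receptors, rose by 1.79 ± 0.16 (adjusted p = 4.846e-08). It was higher still in prefrontal cortex in each strain group, at up to 4710 against 4107 at most in hippocampus. Bdnf had 345 in SHR, 371 in WKY, 428 in SD-PCB and 299 in SD hippocampus, against 13.3 to 484 elsewhere (1.18 ± 0.33, adjusted p = 0.01935). Its highest signal was in the vermis, and the call was lost without SHR (1.01, adjusted p = 0.09929) and without WKY (1.24, adjusted p = 0.09067). Nrn1, the activity-driven protein neuritin, rose by 1.05 ± 0.24 (adjusted p = 0.004646), with 0.993 without SHR (adjusted p = 0.02142) and 0.997 without WKY (adjusted p = 0.04471). Its signal was higher in the vermis in each strain group, at up to 12540 against 11780 at most in hippocampus. Fgf1, a fibroblast growth factor, fell (-1.38 ± 0.35, adjusted p = 0.01098). The substantia nigra region had by far its highest signals, at 1084 to 1262. The Fgf1 median was 121 in hippocampus, 119 in prefrontal cortex, 123 in dorsal striatum, 248 in ventral striatum and 94.1 in vermis. Its SHR hippocampal array was the lowest at 16.1, beside 109 in WKY, 133 in SD-PCB and 194 in SD. Without SHR the Fgf1 difference was -0.60 (adjusted p = 0.1811). In the list, 4 of the 14 rose and 1 fell without the SD-PCB arrays. Among 12 immediate early genes 2 rose and 0 fell, with a median of 0.17: Nr4a3, a nuclear receptor induced by activity (1.79 ± 0.20, adjusted p = 9.585e-07), and Dusp6, a phosphatase that ends ERK signalling (1.12 ± 0.16, adjusted p = 2.729e-05). With SD-PCB left out, 2 of the 12 rose and 1 fell.

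Neuropeptide genes gave 4 rises and 2 falls among 18 tested, with a median of 0.59. Nts, the precursor of neurotensin, had 1128 in SHR, 1376 in WKY, 1515 in SD-PCB and 813 in SD hippocampus, against 6.09 to 861 elsewhere (3.17 ± 0.44, adjusted p = 2.151e-05). Its highest other signals were in ventral striatum, and prefrontal cortex had 81.0 in SHR, 53.0 in WKY, 24.5 in SD-PCB and 8.68 in SD. Besides Cck, the rises were Sstr3, the somatostatin receptor of neuronal cilia (1.24 ± 0.38, adjusted p = 0.03567), and Trhr, the receptor for thyrotropin-releasing hormone (1.05 ± 0.34, adjusted p = 0.04852). The Trhr call was lost without any 1 of the strain groups, with values from 0.901 without SD-PCB (adjusted p = 0.02233) and 1.03 without WKY (adjusted p = 0.2147) to 1.13 without SHR (adjusted p = 0.1374) and 1.15 without SD (adjusted p = 0.1145). The Sstr3 call was lost without SHR (1.04, adjusted p = 0.2125), WKY (1.14, adjusted p = 0.213) or SD (1.18, adjusted p = 0.1498). The falls were Penk and Tac1, precursors of enkephalin and substance P in striatal neurons. Tafa1, a secreted chemokine-like protein, was another large rise, with 1403 in SHR, 1249 in WKY, 1317 in SD-PCB and 1215 in SD hippocampus, against 7.29 to 1168 elsewhere (2.94 ± 0.54, adjusted p = 0.0005773).

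Of 8 acetylcholine and monoamine receptors tested, 1 rose and 1 fell, and 2 fell without the SD-PCB arrays. Chrm3, a muscarinic receptor coupled to calcium release, rose by 1.18 ± 0.30 (adjusted p = 0.01132), a call lost without SHR (1.18, adjusted p = 0.06868) and without SD (1.03, adjusted p = 0.09917). It had 366 in SHR, 224 in WKY, 348 in SD-PCB and 374 in SD hippocampus. Prefrontal cortex was higher except in SD, with 381 in SHR, 318 in WKY, 397 in SD-PCB and 199 in SD. Drd2, the dopamine receptor of striatal neurons, fell by 2.22 ± 0.37 (adjusted p = 0.0001711). List genes under the filter are named after their values were seen, from the fit without a filter, in which 4 of them rose and 5 fell. Htr5b, a serotonin receptor, had 759 in SHR, 390 in WKY, 532 in SD-PCB and 412 in SD hippocampus, against at most 156 elsewhere (3.54 ± 0.52, adjusted p = 2.922e-05). Ntf3, a neurotrophin of dentate granule cells, had 594 in SHR, 476 in WKY, 396 in SD-PCB and 429 in SD hippocampus, against at most 289 elsewhere (2.53 ± 0.42, adjusted p = 0.0001446). Neither gene had an array of another region at the level of the hippocampus. Adra1d, an adrenergic receptor, was shared with the neocortex: 655 in SHR, 413 in WKY, 221 in SD-PCB and 289 in SD hippocampus, against 627 in SHR, 363 in WKY, 225 in SD-PCB and 331 in SD prefrontal cortex (2.43 ± 0.37 against the mean of all other regions, adjusted p = 4.308e-05). Epha6, an Eph receptor, rose by 1.55 ± 0.37 (adjusted p = 0.009717). The falls were Th, the tyrosine hydroxylase of dopamine neurons (-2.54 ± 0.60, adjusted p = 0.008556), Unc5b, a netrin receptor (-2.23 ± 0.50, adjusted p = 0.005454), Oprm1, the mu opioid receptor (-1.97 ± 0.56, adjusted p = 0.03449), Slc6a3, the dopamine transporter (-1.72 ± 0.49, adjusted p = 0.0367), and Sema3f, a semaphorin that binds Nrp2 (-1.20 ± 0.35, adjusted p = 0.04227). Their hippocampal signals were at most 86.1, where background is unknown.

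The hippocampus was the highest of the 6 regions in each of the 4 strain groups for 105 of 9009 genes (1.17%). The same count was 230 for the prefrontal cortex, 233 for the dorsal striatum, 15 for the ventral striatum, 466 for the substantia nigra with ventral tegmental area and 629 for the vermis. It was the lowest region in each strain group for 23 genes, against 890 for the vermis. The widest mean margins over the next region, on the log2 scale, were 2.79 for Pkp2, 2.49 for Fibcd1, 1.89 for Kcng2, 1.46 for Kctd4, 1.40 for Frzb and 1.38 for Nr3c2. Then came Smpd2, a neutral sphingomyelinase (1.30), Cpne6 (1.25), Rcn3, a calcium-binding protein of the secretory pathway (1.22), and Cpne7 (1.14). Kctd4, of the potassium channel tetramerisation domain family, had 3720 in SHR, 3295 in WKY, 5321 in SD-PCB and 4511 in SD hippocampus, and no other array was above 1628 (2.13 ± 0.17, adjusted p = 1.471e-08). For Frzb and Kctd4 the next region was the prefrontal cortex. The margins are a description with no test.

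Most of the large falls were genes of the striatum and the cerebellum. Of 12 striatal medium spiny neuron genes tested, 0 rose and 6 fell, with a median of -1.03. Penk had 735 in SHR, 628 in WKY, 1442 in SD-PCB and 543 in SD hippocampus, against 774 to 13710 elsewhere (-2.02 ± 0.20, adjusted p = 2.2e-07). Rgs9, a regulator of dopamine receptor signalling, fell by 1.59 ± 0.31 (adjusted p = 0.001127), Ppp1r1b, the dopamine-regulated phosphatase inhibitor, by 1.11 ± 0.13 (adjusted p = 2.562e-06) and Tac1 by 1.17 ± 0.20 (adjusted p = 0.0002818). Adora2a, the adenosine receptor of enkephalin neurons, had 77.2 in SHR, 63.4 in WKY, 227 in SD-PCB and 19.8 in SD hippocampus, and its difference of -1.57 ± 0.50 (adjusted p = 0.04735) was 0.08 against the median of the other regions. Without the SD-PCB arrays, whose hippocampal array had the highest signal of Penk, Tac1, Adora2a and Scn4b, 8 of the 12 fell, with a median of -1.22. Adora2a lost its call without SHR (-1.64, adjusted p = 0.06376), WKY (-1.38, adjusted p = 0.2585) or SD (-1.08, adjusted p = 0.3029). Without WKY, Tac1 had -0.95 (adjusted p = 0.01603) and Ppp1r1b -0.95 (adjusted p = 0.0004886), both under the minimum.

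Of 8 cerebellar neuron genes tested, 0 rose and 4 fell, with a median of -1.33. Pcp2, a Purkinje cell protein, had 80.0 in SHR, 47.8 in WKY, 5.44 in SD-PCB and 30.4 in SD hippocampus, against up to 13410 in the vermis (-2.53 ± 0.55, adjusted p = 0.002701). Car8, a carbonic anhydrase-related protein of Purkinje cells, fell by 2.10 ± 0.26 (adjusted p = 5.631e-06), and Ppp1r17, a phosphatase inhibitor of the same cells, by 1.97 ± 0.60 (adjusted p = 0.03563). The WKY prefrontal array also had cerebellar markers, with 668 for Pcp2, 901 for Car8 and 434 for Ppp1r17, and a list sum of 13790 against 7425 to 9624 on the other prefrontal arrays. Its part in these falls was not tested. Ppp1r17 lost its call without SHR (-1.32, adjusted p = 0.3106) and without WKY (-1.69, adjusted p = 0.1754), and had 0.02 against the 3 forebrain regions.

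Other large falls were regulators shared by several regions outside the hippocampus. Foxp2, a forkhead factor of striatal and Purkinje neurons, had 14.5 in SHR, 68.5 in WKY, 173 in SD-PCB and 434 in SD hippocampus, against 166 to 1293 elsewhere (-2.36 ± 0.38, adjusted p = 0.0001363). The SHR and WKY hippocampal arrays were below all 20 arrays of other regions, and the SD array was not. Meis1, a homeobox cofactor, had 132 to 176 in hippocampus and up to 1956 in the vermis (-1.79 ± 0.20, adjusted p = 1.293e-06). Dach1, a transcriptional cofactor, had its highest signals in dorsal striatum (-1.87 ± 0.25, adjusted p = 1.317e-05), and Epb41, a protein of the membrane skeleton, in the vermis (-1.90 ± 0.14, adjusted p = 4.68e-09).

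Set against each region alone, the number of genes that differed was lowest for the prefrontal cortex, at 136 higher (1.51%) and 94 lower (1.04%), and highest for the vermis, at 935 higher (10.4%) and 375 lower (4.16%). The ventral striatum gave 155 higher (1.72%) and 146 lower (1.62%), the dorsal striatum 279 higher (3.1%) and 223 lower (2.48%), and the substantia nigra with ventral tegmental area 399 higher (4.43%) and 246 lower (2.73%). These comparisons share the hippocampal arrays.

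**Figure D3:**
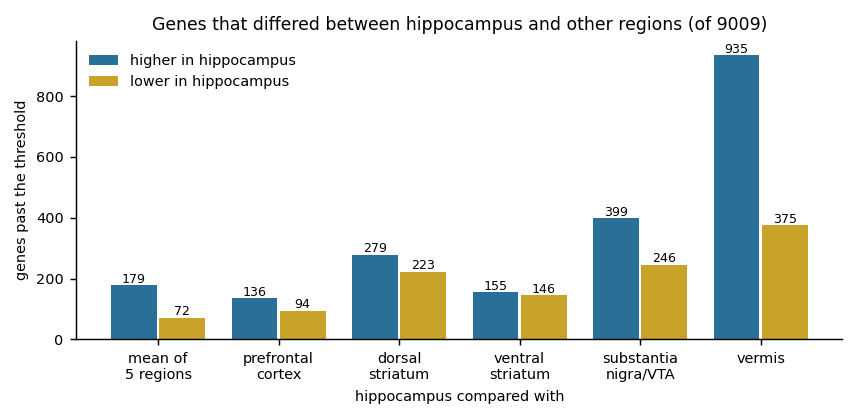
Number of genes higher and lower in the hippocampus against the mean of the 5 other regions and against each region alone, of 9009 genes tested. The bars run from 136 higher and 94 lower against the prefrontal cortex to 935 higher and 375 lower against the vermis.

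The comparison with the prefrontal cortex shows which of the rises the neocortex does not share. Nts had the largest difference, 5.19 ± 0.57 (adjusted p = 3.256e-06), and Pkp2 had 3.49 ± 0.36 (adjusted p = 1.604e-06). Prox1 had 2.49 ± 0.14 (adjusted p = 1.288e-10), whereas Neurod6 had 0.91 ± 0.42 (adjusted p = 0.2409), Gabra5 0.87 ± 0.30 (adjusted p = 0.08819) and Tafa1 0.72 ± 0.70 (adjusted p = 0.6729). Pter, a phosphotriesterase-related enzyme, rose by 2.45 ± 0.29 against all regions (adjusted p = 2.344e-06) and had -0.05 ± 0.37 against the prefrontal cortex (adjusted p = 0.9675). A p over the threshold does not show that the levels were the same. The other large rises against the prefrontal cortex were genes of ventricle linings: Ttr, the transthyretin of choroid plexus (5.06 ± 1.03, adjusted p = 0.003093), Otx2, a homeobox factor of choroid plexus (3.90 ± 0.61, adjusted p = 0.0002217), and Tmem212 of ciliated ependyma (3.75 ± 0.46, adjusted p = 1.165e-05). Cdhr4, a cadherin-related gene, rose by 3.70 ± 0.54 (adjusted p = 9.505e-05).

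Genes lower in hippocampus than in prefrontal cortex included Tcerg1l, a relative of a transcription elongation regulator. It had 115 in SHR, 56.3 in WKY, 66.2 in SD-PCB and 168 in SD hippocampus and up to 733 in prefrontal cortex (-2.68 ± 0.32, adjusted p = 8.2e-06). Tnnc2, a troponin (-2.43 ± 0.32, adjusted p = 2.804e-05), Hs3st2, a heparan sulfate sulfotransferase (-2.31 ± 0.54, adjusted p = 0.009268), Tmem196, a membrane protein (-2.30 ± 0.24, adjusted p = 1.631e-06), and Car10, a carbonic anhydrase-related protein that binds neurexins (-2.26 ± 0.27, adjusted p = 8.2e-06), followed. Plaat1, a phospholipase and acyltransferase, had -2.15 ± 0.44 (adjusted p = 0.003276). Among 10 neocortical neuron genes tested against the mean of all regions, 2 rose and 1 fell, with a median of -0.18. Mlip, a lamin-interacting protein (1.55 ± 0.21, adjusted p = 1.833e-05), and Fezf2, a factor of deep-layer projection neurons (1.73 ± 0.36, adjusted p = 0.001661), rose but were highest in prefrontal cortex. Fezf2 lost its call without WKY (1.57, adjusted p = 0.05069). The fall was Foxp2.

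Markers of cells that line the ventricles varied among the hippocampal arrays. Ttr had 5201 in SHR, 8085 in WKY, 3876 in SD-PCB and 14170 in SD hippocampus, against 24.6 to 20980 elsewhere, the highest of which was a vermis array (3.90 ± 0.80, adjusted p = 0.00167). It was the single call among 7 choroid plexus genes tested, whose median was 0.47, and 2 rose without the SD-PCB arrays. The summed signal of 14 choroid plexus genes was 11950 in SHR, 15900 in WKY, 10750 in SD-PCB and 25970 in SD hippocampus, against 2419 to 5916 in prefrontal cortex and up to 43270 in vermis. For 5 ependymal genes the sum was 1836 to 2745 in hippocampus and 672 to 1083 in prefrontal cortex. What part such tissue has in the difference of Ttr, Otx2 and Tmem212 was not tested.

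None of 12 astrocyte, 13 oligodendrocyte, 10 microglia, 8 endothelial and pericyte, 11 meningeal and 3 ependymal genes tested passed the threshold. Gfap, the intermediate filament of astrocytes, came closest, with 5410 in SHR, 3523 in WKY, 3194 in SD-PCB and 3399 in SD hippocampus and up to 6176 in the midbrain region (0.98 ± 0.16, adjusted p = 0.0001966). Of the 8 endothelial and pericyte genes, 2 were lower at an adjusted p under 0.05 alone: Slco1a4, a transporter of the blood-brain barrier (-0.72 ± 0.16, adjusted p = 0.004588), and Abcb1a, an efflux pump (-0.73 ± 0.21, adjusted p = 0.02162). Their list had a median of -0.41, and without the SD-PCB arrays 1 gene fell and the median was -0.54. None of 5 midbrain dopamine neuron genes and 6 thalamus and habenula genes above the filter passed, while Th and Slc6a3 under it fell in the fit without a filter. Without the SD-PCB arrays the thalamus and habenula list had a median of -0.51, against 0.14 with them, and 1 of its 6 genes fell. Adult neurogenesis genes, of which 13 were tested, gave 0 calls and a median of 0.06. Dpysl5, a collapsin response mediator of growing axons, had -0.70 ± 0.12 (adjusted p = 0.000184) and Stmn1, a microtubule regulator, -0.23 ± 0.09 (adjusted p = 0.1175).

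**Figure D4:**
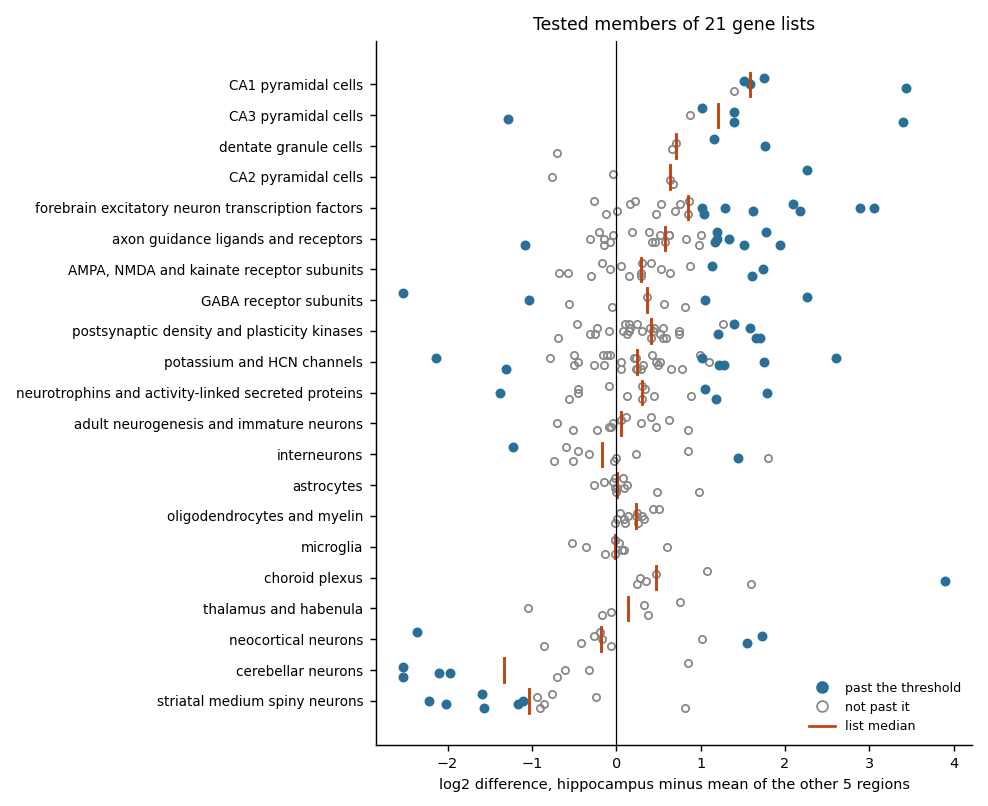
Hippocampus minus the mean of the 5 other regions (log2) for the tested members of 21 gene lists, 1 point for each gene, with the median of each list. The medians run from 1.59 for CA1 pyramidal cells to -1.33 for cerebellar neurons, and the median over all genes tested is 0.0.

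Strain groups were compared within the hippocampus relative to the other regions, which asks whether the difference between strain groups was another one in the hippocampus than elsewhere. For SHR minus WKY 0 of 15521 probe sets passed (0.0% higher and 0.0% lower), with 430 at an unadjusted p under 0.05 (2.77%). The smallest p-values gave an adjusted p of 0.4918 in limma. Kitlg, the ligand of the Kit receptor, had 15.9 in SHR hippocampus and 175 in WKY hippocampus and a term of -2.96 ± 0.55, and Fgf1 one of -2.96 ± 0.61. Carf, a calcium-responsive transcription factor, had 75.2 in SHR and 478 in WKY hippocampus (-2.36 ± 0.51), and probe sets 1376836_at (-2.97 ± 0.65) and 1377704_at (-1.49 ± 0.32), which have no gene name here, were the others. For Kitlg the fall of the whole hippocampus against the other regions (-1.16 ± 0.37, adjusted p = 0.04526) was lost without SHR (-0.30, adjusted p = 0.6233) and without WKY (-1.28, adjusted p = 0.1432).

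For SD-PCB minus SD 3 probe sets passed (0.0193% higher, 0.0% lower), with 469 at an unadjusted p under 0.05 (3.02%). Slc35d3, a nucleotide sugar transporter-like protein, had 1247 in SD-PCB and 190 in SD hippocampus, with 470 in SHR and 503 in WKY (term 2.49 ± 0.36, adjusted p = 0.01716). Both Sprague-Dawley arrays lie outside the span of the inbred strains, and the SD-PCB array is the one with the higher striatal and thalamic markers. A dimmer probe set of Cbx1, a heterochromatin protein, had 124 in SD-PCB and 12.5 in SD hippocampus (3.66 ± 0.55, adjusted p = 0.01749), and probe set 1380599_at, with no gene name here, had 87.2 in SD-PCB and 7.63 in SD (4.45 ± 0.72, adjusted p = 0.02808). For these probe sets it is the SD array that is low, since SHR and WKY had 190 and 167 for Cbx1 and 131 and 84.0 for 1380599_at. Lpxn (4.78 ± 0.85, adjusted p = 0.07778) and Ybey (4.07 ± 0.75, adjusted p = 0.09366) missed the threshold with the same pattern, at 152 in SD-PCB and 8.42 in SD for Lpxn and 161 in SD-PCB and 8.25 in SD for Ybey. With 1 hippocampal array per strain group, the spread in these terms is taken from the other regions.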

How the data were processed

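The deposited table holds 1 linear intensity for each of 31099 probe sets on 24 arrays; per the submitters' processing notes the authors made these intensities with MAS5, whose version is not given in the sources used here. Per the labels' protocols RNA was extracted with Qiagen RNeasy and labelled with the Nugen Ovation kit. The trimmed mean of each array is near 500.2, which shows global scaling, and detection calls and scan batches are not given, so background is unknown for low signals. The number of arrays limits the precision.

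After 57 control probe sets were set aside, 31042 remained, of which 20826 had 1 gene symbol, 436 several and 9780 none. Signals were transformed as log2(signal + 1). Tests ran on the 15521 probe sets whose mean was not under the overall median (signal 116). For each of 9009 genes the brightest of the probe sets that carry its symbol alone was taken. The fit used limma 3.58.1 in R 4.3.3 with region and strain group as terms, so the replicate number, which stands for the strain group, is a block in the main result. Per the series description the regions were taken from 1 set of 28 brains; which rats stand behind an array is not given here. Moderation used a trend on mean signal, tests were two-sided, and p-values were adjusted by Benjamini-Hochberg over probe sets. Simulated data were made for hippocampus minus mean of 5 regions, with 15521 probe sets. At an adjusted p under 0.05 alone, 18 of 50 changed 1.5-fold and 37 of 50 changed 2-fold were called. So were 49 of 50 changed 3-fold and 49 of 50 changed 4-fold. The whole run gave 10 false calls. The minimum log2 difference of 1 used for the results was not applied in the simulation. Its noise was normal and independent between probe sets, and the other regions did not differ from each other. The real arrays have such regional differences, so these counts need not hold for them. The mean fitted log2 size was 0.56 for the 1.5-fold and 1.028 for the 2-fold changes.

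The members and the gene lists were chosen with earlier results of these data known. Named genes are the 20 largest rises and 12 largest falls with 1 sign in 4 strain groups, up to 5 called members of each list (the 2 smallest p where there was none), the 6 largest rises and falls against prefrontal cortex, the 10 largest margins, the 5 smallest p of each strain term, and the markers. List members beyond the 5 largest calls, and genes under the filter, were named after their values were seen. Alternatives were other normalizations, filters, pseudocounts and thresholds, array weights, limma on the 4 differences alone, and leaving out each region or strain group.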

Additional observations from a re-analysis of the deposited data

Results flagged for a closer look

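For 11 of 133 named probe sets examined (8.27%) 1 strain group was far from the other 3 in the hippocampal log2 difference. Chance alone can give such values. Probe sets 1380599_at and 1377704_at, Lpxn, Ybey and Cbx1 were also named for a strain group difference. The count is therefore no measure of excess. In SD the lone value was low for probe set 1380599_at (-4.54), Lpxn (-4.20), Ybey (-3.85), the dimmer Cbx1 probe set (-3.82) and Cacna1h (0.21), and high for Trpc6 (1.53). In SD-PCB it was the least negative for Penk (-0.88) and Scn4b (-0.86), genes of striatal neurons, on the hippocampal array with the highest sum of striatal markers. In SHR it was high for Scn3b (2.15) and low for probe set 1377704_at (-1.34), and in WKY it was high for Frzb (2.93). The SD-PCB minus SD difference in the hippocampus, 1 array against 1, stood apart from that in the other regions for probe set 1380599_at (4.45), the dimmer Cbx1 probe set (3.66) and Slc35d3 (2.49), by limma's test of the difference, whose spread is taken from the other regions. Without the dorsal or the ventral striatum, on 12 arrays or at an adjusted p of 0.01, 0 probe sets passed that test.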

How the results depend on the processing

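Of 1832 values of 94 called genes under the alternatives, 1577 kept direction and call, 248 kept only direction and 7 turned. Turned values were Adora2a 0.082 and Kcnj4 -0.043 against the median of the other regions, and Grm5 -0.097, Kcnj4 -0.516, Neto1 -0.049, Nrgn -0.009 and Ppp1r17 0.015 against the 3 forebrain regions. All following counts are of probe sets. Against the mean of 5 regions 439 were called, against 200 in the upper 25% by mean, 256 with 1 probe set per gene, 230 against the median of the other regions (225 higher and 5 lower), 1206 with a log2 of at least 0.5 and 1605 with no minimum. For the upper 25%, 1 probe set per gene, log2 of at least 0.5 and no minimum, in that order, the prefrontal cortex gave 167, 230, 864 and 944 beside 371, the dorsal striatum 381, 505, 1803 and 2027 beside 848, the ventral striatum 241, 303, 1046 and 1178 beside 511, the substantia nigra region 558, 645, 2909 and 3399 beside 1255, and the vermis 1072, 1311, 4958 and 5744 beside 2457. These settings test fewer probe sets or change the minimum size, by construction. Leaving out 1 strain group gave 343 to 484 against the mean, 293 to 347 against prefrontal cortex, 645 to 918 against dorsal striatum, 371 to 534 against ventral striatum, 1046 to 1430 against the substantia nigra region and 2313 to 2558 against vermis. The hippocampus was highest for 326 genes in at least 3 strain groups, beside 105 in 4. The SHR minus WKY term, 0 as reported, gave 2 after quantile normalization and 1 with array weights. The SD-PCB minus SD term, 3 as reported, gave 1 with a pseudocount of 16, no filter, the upper 25%, 1 probe set per gene or without the prefrontal cortex, 0 without the dorsal or the ventral striatum, on 12 arrays or at an adjusted p of 0.01, 6 without the vermis and 13 with array weights. The cause of the changes in these terms was not tested. The strain group was the replicate block in each of these fits, and no fit without it was run.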
